A study of Mus musculus with 2 samples.

Results

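The oxidative phosphorylation genes were taken by symbol: every nuclear gene starting with Ndufa, Ndufb, Ndufc, Ndufs, Ndufv, Uqcr, Cox4 to Cox8 or Atp5, the succinate dehydrogenase genes Sdha to Sdhd, and, apart from these, every mt- gene. The rule gave 107 of the 32285 genes in the deposited matrices, 94 nuclear and 13 mitochondrially encoded. The nuclear genes comprised 37 for complex I, 4 for complex II, 8 for complex III, 20 for complex IV, 17 for complex V and 8 complex I assembly factors (Ndufaf1 to Ndufaf8). Ndufa4 and Ndufa4l2 carry complex I names but were counted in complex IV, where Ndufa4 is now placed. The mitochondrial genes comprised 7 for complex I, 1 for complex III, 3 for complex IV and 2 for complex V.

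The study sequenced the 3′ ends of transcripts from single cells in droplets. The first library came from normal colon (labelled IEL) and the other from colon tumor (labelled TIL). The mice were C57BL/6J, 18 to 20 weeks old, and the labels call the cells γδ T lymphocytes. No genotype or treatment beyond this is labelled, and the protocol text describes tumour tissue for both libraries and no sort. 3 sets of T cells were compared: 9099 IEL cells, 9310 TIL cells with at least 1 unique molecular identifier (UMI) of Cd163l1, and the 2793 other TIL cells. Cd163l1 encodes a scavenger receptor known as a marker of γδ T cells that make interleukin 17. A T cell had at least 2 UMIs over Cd3d, Cd3e and Cd3g and more UMIs of T cell markers than of all other cell type markers.

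Oxidative phosphorylation makes ATP in the inner mitochondrial membrane. Complex I takes electrons from NADH and complex II from succinate, complex III passes them from ubiquinol to cytochrome c, and complex IV hands them to oxygen. Complexes I, III and IV pump protons, and complex V, the ATP synthase, uses the proton gradient. Each complex except II joins subunits translated in the cytosol with subunits translated in the mitochondrion, so 2 genomes have to supply it. Interleukin 17-producing γδ T cells are known for relying on oxidative metabolism more than interferon-γ-producing ones.

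The promoters of the members with the highest ratio over IEL in each complex are shown, since members that move together are often discussed through NRF1, ETS, YY1 and estrogen-related receptor sites. They come from RefSeq (GRCm38.p6), run 5′ to 3′ on the gene's strand from 130 bases before the start base to 9 after it, and carry NRF1 and ETS letters in capitals.
Ndufa1: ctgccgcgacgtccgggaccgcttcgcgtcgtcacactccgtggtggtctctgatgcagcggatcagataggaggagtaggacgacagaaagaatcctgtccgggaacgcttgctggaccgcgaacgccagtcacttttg
Sdhb: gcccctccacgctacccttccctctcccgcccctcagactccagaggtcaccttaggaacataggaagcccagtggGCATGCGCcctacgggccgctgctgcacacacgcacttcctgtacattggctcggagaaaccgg
Uqcr11: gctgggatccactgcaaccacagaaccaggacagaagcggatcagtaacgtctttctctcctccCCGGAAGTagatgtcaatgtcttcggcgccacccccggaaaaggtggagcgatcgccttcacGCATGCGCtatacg
Ndufa4: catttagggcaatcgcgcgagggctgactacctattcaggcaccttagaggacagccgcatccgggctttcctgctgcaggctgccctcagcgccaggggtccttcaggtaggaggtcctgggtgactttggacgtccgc
Atp5k: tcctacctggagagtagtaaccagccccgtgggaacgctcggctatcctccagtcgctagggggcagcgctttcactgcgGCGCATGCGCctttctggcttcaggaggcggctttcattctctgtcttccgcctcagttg
The stretches lie at chrX:37191229-37191368 (minus strand) for Ndufa1, chr4:140961141-140961280 (plus) for Sdhb, chr10:80406812-80406951 (minus) for Uqcr11, chr6:11907441-11907580 (minus) for Ndufa4 and chr5:108434390-108434529 (minus) for Atp5k. Sdhb held the NRF1 core 54 bases before the start base, and Uqcr11 held it 4 bases before, with an ETS match 66 bases before. In Atp5k the core began 48 bases before and overlapped its own reverse complement, which began 50 bases before. None of the 4 motifs searched was found in the Ndufa1 or Ndufa4 stretch, which says only that these letters are not in it.

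Over the full windows of 300 bases in the RefSeq table, searched on both strands, 77 of the 94 nuclear members had an entry. The NRF1 core GCATGCGC stood in 12 of the 77 (15.6%), against 3.05% of all 27025 genes with an entry. The YY1 letters AAGATGGC stood in 11 (14.3%, against 3.19%), the ETS letters CCGGAAGT in 5 (6.49%, against 4.31%) and the estrogen-related receptor letters TCAAGGTCA in 2 (2.60%, against 0.466%). Of the YY1 matches, 7 fell in complex I, among them Ndufc1, Ndufs4 and Ndufb8, and 3 in complex V (Atp5f1, Atp5j and Atp5j2). Of the 22 members that were at least 1.5-fold higher in Cd163l1-positive TIL cells than in IEL cells, 20 had an entry and 6 held the NRF1 core (Ndufa11, Sdhb, Uqcr11, Cox6a1, Atp5k and Atp5l), against 5 of 52 other measured members. The YY1 letters stood in 2 of those 20 and 9 of those 52. These are matches of letters, looked up after the ratios were known, and no binding was measured.

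The IEL library held 9398 barcodes with 69414155 UMIs and the TIL library 13245 with 94953893, and they shared 33 barcode sequences. Median depth was 6864 UMIs in IEL cells, 6760.5 in Cd163l1-positive TIL cells and 5625 in other TIL cells. Levels are UMIs of a gene per 1000000 UMIs of the group (CPM), and since counting at the 3′ end gives 1 UMI per captured molecule they were not divided by length. Intervals in brackets are exact 95% intervals for counting error only: with 1 library per group there is no replicate and no test, and library, tissue and cell type cannot be told apart between IEL and TIL. Trdc, the δ receptor constant gene, stood at 817, 4284 and 2214 CPM in the IEL, Cd163l1-positive and other TIL cells, and Trac of the αβ receptor at 325, 95.7 and 130 CPM. Il17a stood at 11.3, 5022 and 1755 CPM and the cytotoxic gene Ccl5 at 22177, 603 and 5548 CPM. A γδ receptor UMI without any Trac UMI was found in 1998 IEL, 5795 Cd163l1-positive and 1667 other TIL cells, so a minority of the IEL cells met the label by this measure. Cd163l1 had a UMI in 1.10% of IEL cells but in 38.0% of the 245 TIL droplets led by markers of other cell types, at 165 CPM against 765 CPM in the Cd163l1-positive cells. Median depth was 6886 UMIs in those droplets. The 5 erythroid markers summed to 0.189, 87.5 and 95.1 CPM in the 3 groups, with 1, 0 and 0 of them at 0. Summed myeloid markers reached 60.9 and 65.2 CPM in the TIL groups with 0 of 15 at 0, and were lower in IEL cells, where 6 of 15 were at 0. Epithelial markers summed to 88.3, 18.1 and 49.2 CPM, but not all went the same way. Cdh1 (38.8, 2.44 and 24.0 CPM) and Epcam (36.4, 4.09 and 17.7 CPM) were the largest in IEL cells. Krt18 (1.79, 4.53 and 2.55 CPM), Krt19 (0.743, 1.18 and 1.22 CPM) and Muc2 (0.0437, 0.136 and 0.116 CPM) were higher in both TIL groups. The 14 dissociation stress genes, such as Fos and Hspa1a, summed to 14483 CPM in IEL and 6142 and 5930 CPM in the TIL groups. Of the stress genes 9 of 14 were at least 1.5-fold lower in Cd163l1-positive TIL cells than in IEL cells, against 26.9% of all genes, and 3 of the 14 reached 20 CPM in IEL cells alone. What these differences contribute to the results was not tested.

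**Figure D1:**
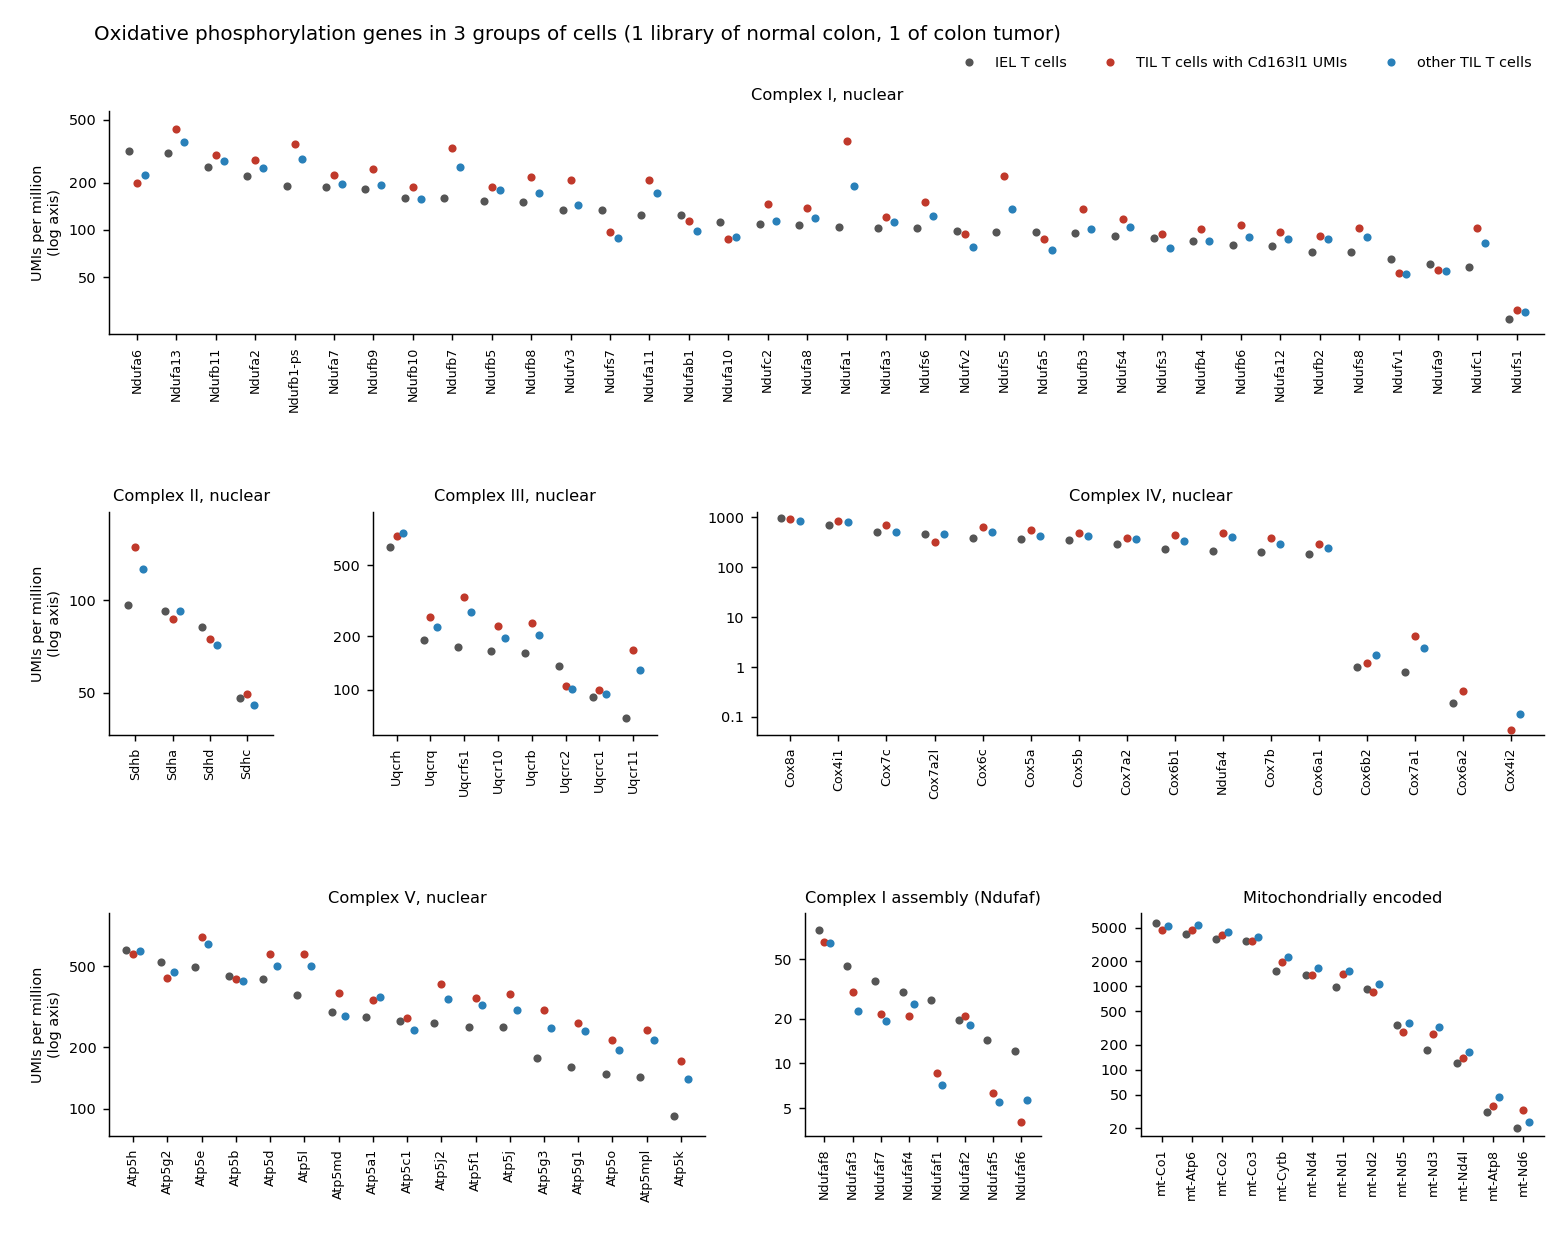
Level of detected members in CPM (log axis, a different range in each panel) in IEL T cells (grey), TIL T cells with Cd163l1 UMIs (red) and other TIL T cells (blue). One point is 1 group of cells from 1 library. In complexes I, III, IV and V most red points lie above the grey ones, while Ndufa6, Cox7a2l and the Ndufaf genes other than Ndufaf2 lie below.

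Nuclear oxidative phosphorylation transcripts made up more of the RNA in Cd163l1-positive TIL cells than in IEL cells. Together the 94 genes took 16907 CPM in IEL cells, 21873 CPM in Cd163l1-positive TIL cells and 19163 CPM in other TIL cells. The Cd163l1-positive cells were 1.29-fold above IEL cells, a log2 ratio of 0.37 (0.37 to 0.37). By complex the log2 ratios were 0.42 for complex III, 0.41 for IV, 0.39 for I, 0.35 for V and 0.18 for II. The summed levels were 4702 and 6177 CPM for complex I, 319 and 361 for II, 1618 and 2158 for III, 4823 and 6399 for IV, and 5182 and 6601 for V. Complex II therefore stood at 1.13-fold against 1.27-fold to 1.33-fold for the others, and the Ndufaf assembly factors went the other way, from 262 to 178 CPM.

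Of the 94 nuclear members, 84 reached 20 CPM in either group, and every one of the 78 subunits among them stood above 20 CPM in all groups, so the floor did not choose them for their ratio. At 1.5-fold, 22 members were higher in the Cd163l1-positive cells and 3 lower, against 20.8% and 26.9% of all 6330 genes at that floor. That is 26.2% of the measured members in the higher direction, close to the background, and 3.57% in the lower one. The median log2 ratio was 0.36 over the members and -0.089 over all genes, with 63 of 84 member ratios above 1. At 2-fold, 5 members were higher and 1 lower, against 11.7% and 14.6% of all genes. Most members thus differed by less than 1.5-fold. Scaled to UMIs outside mitochondrial and ribosomal genes the split was 17 higher and 6 lower, against 18.5% and 30.1% of all genes, and the complex II log2 ratio was 0.097 in place of 0.18.

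**Figure D2:**
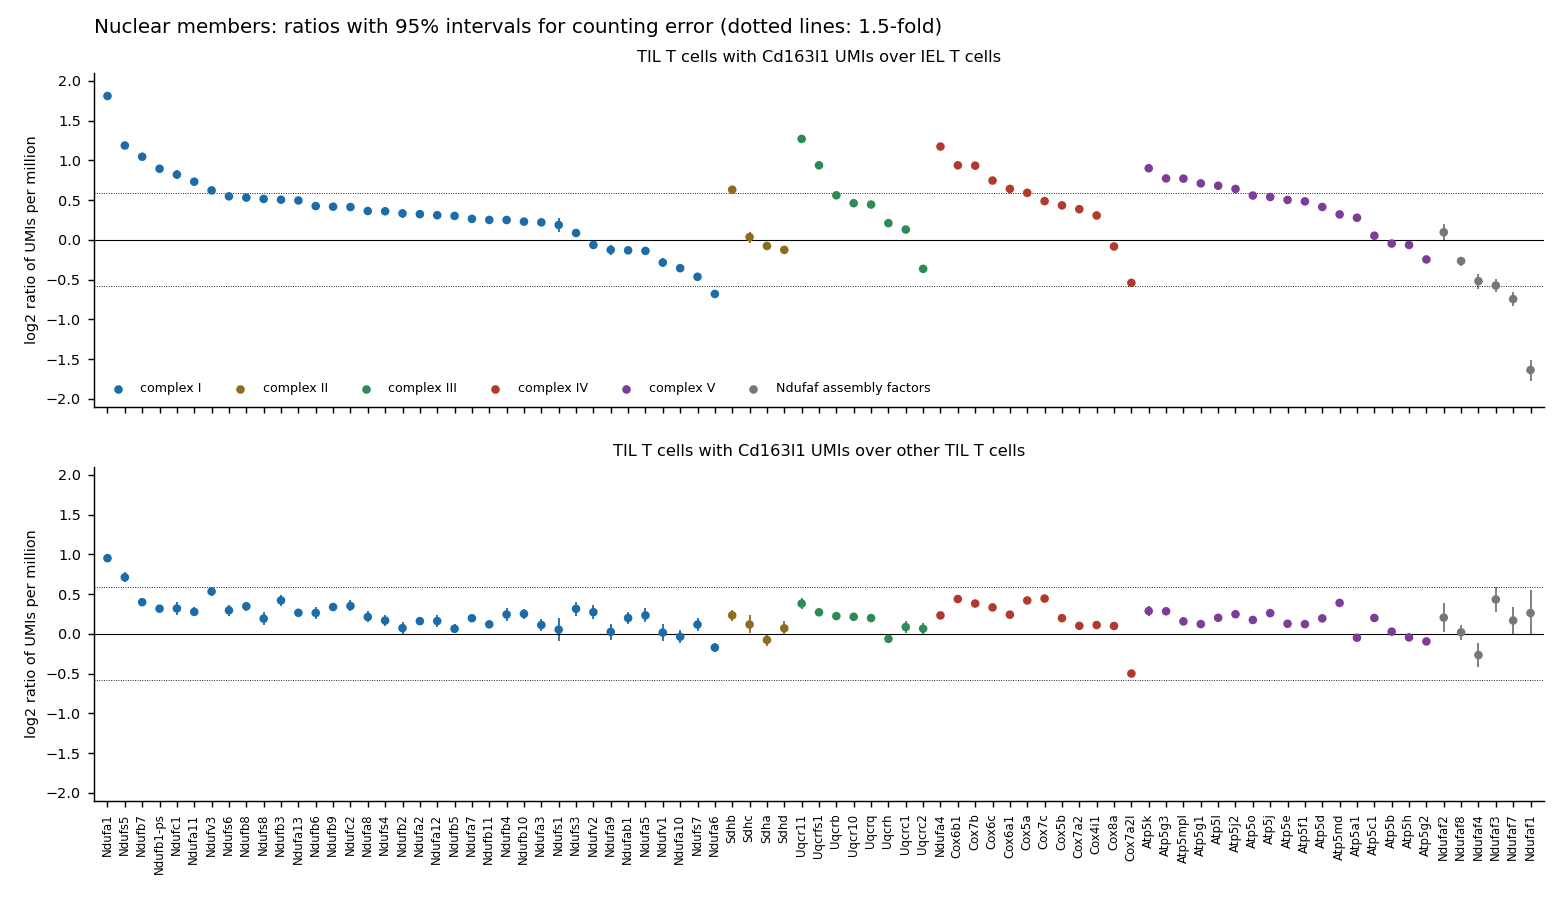
Log2 ratio of 83 of the 84 measured nuclear members in Cd163l1-positive TIL cells over IEL cells (upper panel) and over other TIL cells (lower panel), by complex, with bars for the 95% counting interval and dotted lines at 1.5-fold. In the upper panel 22 members lie above the upper line and 3 below the lower one. In the lower panel only Ndufa1 and Ndufs5 lie past a line.

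In complex I the highest ratio was that of Ndufa1, a small membrane subunit needed for the complex to assemble (chrX:37187588-37191163, minus strand). Its level was 105 CPM in IEL cells, 367 in Cd163l1-positive TIL cells and 190 in other TIL cells. The Cd163l1-positive cells lay above IEL by a log2 ratio of 1.81 (1.77 to 1.85), and the other TIL cells lay between these groups. Ndufs5, an accessory subunit on the intermembrane side (chr4:123712710-123718202, minus strand), stood at 97.2, 221 and 135 CPM in the same order, a log2 ratio over IEL of 1.19 (1.14 to 1.23). Ndufb7, another accessory subunit of that side, stood at 160, 330 and 250 CPM (log2 1.04). Of the other 4 past 1.5-fold, Ndufb1-ps, a small membrane subunit whose symbol carries the ending of a pseudogene, stood at 190, 354 and 284 CPM. The annotation used lists this gene as a long noncoding RNA of a bidirectional promoter and gives it no coding length. Ndufc1 stood at 58.2, 103 and 82.3 CPM, Ndufa11 at 125, 208 and 172 CPM, and Ndufv3, on the NADH-oxidising arm, at 134, 207 and 143 CPM. Ndufa1 is X-linked, as are Ndufb11 (log2 0.25) and Cox7b (0.93). Xist was at most 0.0679 CPM in each group, and the Y-linked Ddx3y was detected in all of them.

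Ndufa6, whose product binds the acyl carrier protein Ndufab1, was the one complex I subunit at least 1.5-fold lower. It was the most abundant complex I transcript in IEL cells at 317 CPM, and stood at 198 CPM in Cd163l1-positive and 223 CPM in other TIL cells, a log2 ratio of -0.68 (-0.71 to -0.65) for the first. Among subunits that carry flavin or iron-sulfur centres, Ndufs7 was at 134 and 96.9 CPM in IEL and Cd163l1-positive cells and Ndufv1 at 65.1 and 53.4 CPM, both lower in Cd163l1-positive cells, while Ndufs8 was higher (72.5 and 104 CPM).

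Complex II, which also belongs to the citric acid cycle, was the least shifted. Sdhb, its iron-sulfur subunit, stood at 96.4, 149 and 127 CPM in IEL, Cd163l1-positive and other TIL cells (log2 0.63 for the first pair, 0.59 to 0.67). Sdha, the flavoprotein, stood at 92.1, 87.3 and 92.1 CPM. Of the membrane anchors, Sdhc stood at 48.3, 49.4 and 45.5 CPM and Sdhd at 82.0, 75.0 and 71.5 CPM. Sdhb alone was past 1.5-fold, and its log2 ratio came to 0.55 when scaled without mitochondrial and ribosomal UMIs.

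In complex III, Uqcr11, a small subunit, stood at 69.6, 168 and 129 CPM (log2 1.27, 1.22 to 1.32). Uqcrfs1, the Rieske iron-sulfur protein that passes electrons on to cytochrome c1, stood at 173, 331 and 275 CPM (log2 0.94). Both TIL groups lay above IEL for these genes. Uqcrb, Uqcr10 and Uqcrq had log2 ratios of 0.56, 0.46 and 0.44, and Uqcrh, the hinge protein and the most abundant of the complex in IEL cells (632, 731 and 763 CPM), of 0.21. The large core proteins differed from the small subunits: Uqcrc1 was at 91.6 and 100 CPM and Uqcrc2 lower at 136 and 105 CPM (log2 -0.37).

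Complex IV had 12 measured subunits, 6 of them at least 1.5-fold higher, against 20.8% of all genes at the floor. Ndufa4 stood at 211, 475 and 405 CPM, a log2 ratio of 1.17 (1.14 to 1.20). Cox6b1, on the intermembrane side, stood at 234, 447 and 330 CPM, and Cox7b at 200, 382 and 293 CPM. Cox6c (log2 0.74), Cox6a1 (0.64) and Cox5a (0.59) completed the 6. Of the 22 members, 5 were not past 1.5-fold under every one of 11 alternatives: Cox5a was past it under 6, Sdhb, Cox6a1 and Ndufv3 under 9 and Atp5j2 under 10. Cox8a, the most abundant of them in IEL cells, was at 960, 905 and 845 CPM (log2 -0.084).

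Cox7a2l, also called Scaf1, links complexes III and IV into supercomplexes, and C57BL/6 mice are known to carry a shortened form of its protein. Its level was 468 CPM in IEL cells, 322 in Cd163l1-positive TIL cells and 455 in other TIL cells (chr17:83501918-83517330, minus strand). The log2 ratio of the Cd163l1-positive cells was -0.54 (-0.57 to -0.52) over IEL and -0.50 (-0.54 to -0.46) over other TIL cells, so IEL and other TIL cells lay together and the Cd163l1-positive cells below both. Its relative Cox7a2, the common isoform, went the other way at 293, 383 and 357 CPM.

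The tissue-restricted isoforms were close to 0. Cox7b2, Cox8b, Cox8c and Ndufa4l2 had no UMI in any group, which for IEL cells has an exact upper limit of 0.0538 CPM. Cox4i2 and Cox6a2, lung and muscle isoforms, stayed at or below 0.326 CPM and Cox6b2, the testis isoform, at or below 1.74 CPM. Cox7a1, the heart and muscle isoform, was at 0.787, 4.09 and 2.37 CPM. All of these lay under the 20 CPM floor, so the complex IV transcripts counted here were those of the common isoforms.

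In complex V the highest ratios were those of small membrane subunits and of the c ring genes Atp5g1 and Atp5g3. Atp5k, subunit e, stood at 91.6, 171 and 140 CPM (log2 0.90, 0.86 to 0.94), and its partners Atp5l (subunit g) and Atp5j2 (subunit f) had log2 ratios of 0.68 and 0.64. Atp5mpl stood at 143, 243 and 218 CPM. Atp5g1, Atp5g2 and Atp5g3 encode the same mature subunit c of the rotating ring. Atp5g1 stood at 160, 262 and 241 CPM and Atp5g3 at 178, 303 and 249 CPM, while Atp5g2 stood at 521, 439 and 469 CPM. Atp5g2 was thus the main transcript in every group, with a log2 ratio of -0.25 over IEL, against 0.71 for Atp5g1 and 0.77 for Atp5g3. The catalytic β subunit Atp5b was at 446, 432 and 424 CPM, the α subunit Atp5a1 at 280, 340 and 352 CPM, and Atp5h, the most abundant in IEL cells, at 600, 574 and 592 CPM.

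The assembly factors other than Ndufaf2 were lower in both TIL groups, and Ndufaf2 stood at 19.5, 20.8 and 18.1 CPM. Ndufaf1, needed for the membrane arm of complex I, stood at 26.8 CPM in IEL cells and 8.61 and 7.18 CPM in Cd163l1-positive and other TIL cells (log2 -1.64, -1.77 to -1.51, and -1.90). It reached the 20 CPM floor through IEL cells alone. Ndufaf7 stood at 36.0, 21.5 and 19.1 CPM, and Ndufaf3 at 45.2, 30.3 and 22.5 CPM. Ndufaf5 and Ndufaf6 were lower too but under the floor. Ndufaf8, the most abundant, was at 78.4, 65.1 and 64.3 CPM.

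In Cd163l1-positive TIL cells the mitochondrially encoded genes were not shifted as far from IEL as the nuclear ones, while in other TIL cells both sums were higher. Their sum was 22547 CPM in IEL cells, 23405 in Cd163l1-positive and 26427 in other TIL cells, a log2 ratio over IEL of 0.054 for the first and 0.23 for the second. The first was -0.028 when scaled without mitochondrial and ribosomal UMIs and -0.041 among cells with a γδ receptor UMI and no Trac, so its direction depended on these choices. The nuclear sum was 0.750 of the mitochondrial sum in IEL cells, 0.935 in Cd163l1-positive and 0.725 in other TIL cells.

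Among single mitochondrial genes, the 3 oxidase subunits ran from lower to higher. mt-Co1 was at 5743, 4708 and 5245 CPM (log2 -0.29 for Cd163l1-positive over IEL), mt-Co2 at 3641, 4124 and 4405 CPM (0.18) and mt-Co3 at 3441, 3518 and 3926 CPM (0.032, and -0.050 when scaled without mitochondrial and ribosomal UMIs). mt-Cytb of complex III was at 1520, 1978 and 2226 CPM (0.38). Among the complex I genes, mt-Nd1 (981, 1416 and 1530 CPM) and mt-Nd3 (174, 270 and 323 CPM) were higher in both TIL groups. mt-Nd2 (938, 859 and 1067 CPM), mt-Nd4 (1381, 1347 and 1631 CPM) and mt-Nd5 (347, 286 and 358 CPM) were lower in the Cd163l1-positive cells and higher in the other TIL cells than in IEL. For mt-Nd4 the first of these log2 ratios was only -0.036, and 10 of 11 alternatives kept its direction (highest 0.053). mt-Nd4l stood at 122, 138 and 162 CPM and mt-Nd6, the one gene of the other strand, at 19.9, 32.9 and 23.7 CPM. Of the complex V genes, mt-Atp6 was at 4208, 4692 and 5483 CPM and mt-Atp8 at 31.5, 36.7 and 47.0 CPM. Some pairs overlap (mt-Nd4l with mt-Nd4, mt-Atp8 with mt-Atp6, mt-Atp6 with mt-Co3, and mt-Nd5 with mt-Nd6 on the other strand), so the level of each such gene is uncertain. mt-Nd3 and mt-Nd6 were at least 1.5-fold higher than in IEL, 2 of 13 (15.4%), which is no more than the 20.8% of all genes.

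**Figure D3:**
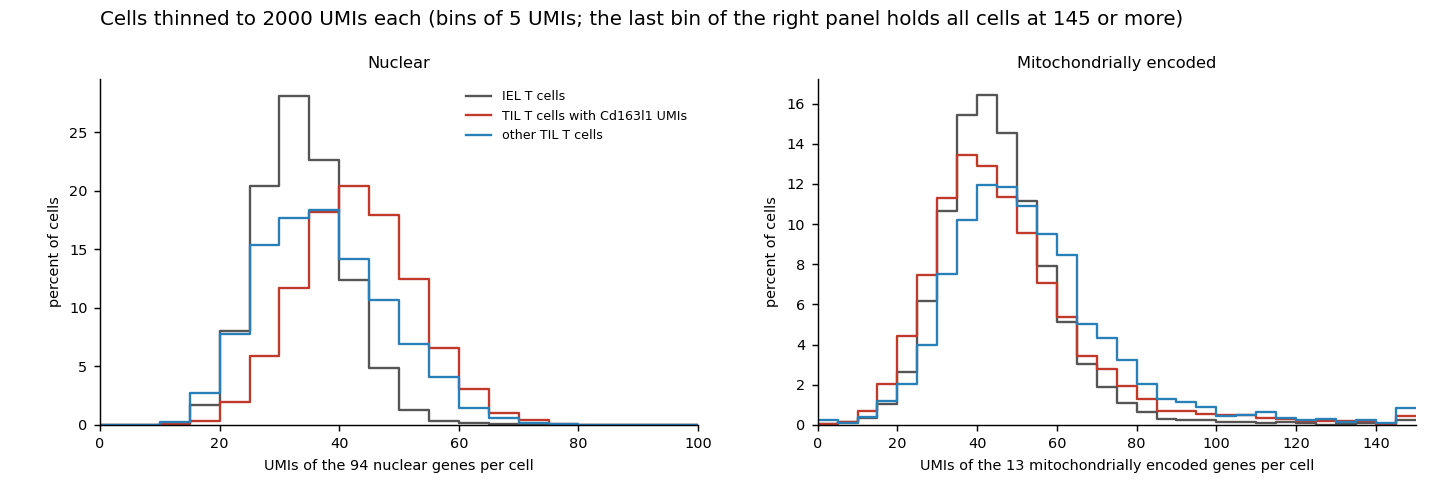
Share of cells (percent) by the number of nuclear (left) and mitochondrially encoded (right) UMIs per cell, after each cell was thinned to 2000 UMIs, for the 3 groups. The nuclear curve of Cd163l1-positive TIL cells lies to the right of the IEL curve, with medians of 42 and 33, while the mitochondrial curves of these 2 groups have medians of 43 and 44.

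After thinning each cell to 2000 UMIs (58, 32 and 32 shallower cells left out of the IEL, Cd163l1-positive and other TIL groups), the median cell had 33, 42 and 36 nuclear UMIs. The middle 50% of cells had 28 to 38, 36 to 49 and 29 to 44. Each quantile taken was higher in Cd163l1-positive TIL cells than in IEL cells, though the distributions overlapped. The quantiles ran from 27 against 22 nuclear UMIs at the 5th percentile to 59 against 46 at the 95th. Other TIL cells spread more widely, with 21 and 56 at these percentiles. Without thinning, nuclear members were 1.69%, 2.19% and 1.92% of all UMIs. For the mitochondrial genes the medians were 44, 43 and 50 UMIs. Across cells within a group, nuclear and mitochondrial UMIs had Pearson's r of -0.093, -0.12 and -0.20, and complex I and complex V UMIs 0.16, 0.26 and 0.34, over 9041, 9278 and 2761 cells that share a library and a fixed total. These are weak and are given as a description.

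Cd163l1-positive and other TIL cells came from the same library, and a cell without a Cd163l1 UMI may still express the gene. Nuclear members were 1.14-fold higher in Cd163l1-positive than in other TIL cells (log2 0.19, 0.19 to 0.20), and mitochondrial genes were lower (-0.18, -0.18 to -0.17). By complex the log2 ratios were 0.27 for I, 0.21 for IV, 0.13 for V, 0.12 for III and 0.10 for II. Of the members 2 were at least 1.5-fold higher, Ndufa1 (1.93-fold, log2 0.95) and Ndufs5 (1.64-fold, log2 0.71), and none lower, against 9.07% and 6.58% of the 5688 genes at the floor. At 2-fold, 0 members were higher and 0 lower, against 2.92% and 3.18% of all genes. The next were Ndufv3 (0.53) and Cox7c (0.44), and of 83 measured members 74 had ratios above 1, with a median of 0.20 against 0.061 for all genes. Of the 13 mitochondrial genes, 12 were lower in Cd163l1-positive cells, from mt-Atp8 at -0.36 to mt-Co2 at -0.095, and mt-Nd6 was higher (0.47).

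This comparison depended on the scaling. Cytosolic ribosomal genes took 176202 CPM in Cd163l1-positive and 247896 CPM in other TIL cells. Scaled without mitochondrial and ribosomal UMIs, a shift of -0.14, the nuclear log2 ratio was 0.049 and the mitochondrial one -0.32. Complexes II, III and V turned to -0.038, -0.022 and -0.0072, and complex I kept 0.13. By this scaling 1 member was higher (Ndufa1) and 1 lower (Cox7a2l), against 6.03% and 10% of all genes. Against only those other TIL cells with under 10 UMIs over Gzma, Ccl5 and Nkg7, the nuclear log2 ratio was 0.13 and the complex III ratio -0.014.

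Between other TIL cells and IEL cells, 8 nuclear members were at least 1.5-fold higher and 3 lower of 83, against 13.4% and 23.2% of 6209 genes. At 2-fold, 0 were higher and 2 lower, against 6.94% and 9.5%. The 8 were Ndufa4 (log2 0.94), Uqcr11 (0.89), Ndufa1 (0.86), Uqcrfs1 (0.67), Ndufb7 (0.65), Atp5k (0.61), Atp5mpl (0.61) and Atp5g1 (0.59), and the 3 were Ndufaf1, Ndufaf3 and Ndufaf7. All 8 were also among the 22 higher in Cd163l1-positive cells, but the 2 comparisons share the IEL cells. The nuclear sum had a log2 ratio of 0.18 and the mitochondrial sum of 0.23. With the median ratio of all genes set to 1, a shift of 0.12, these were 0.30 and 0.35, and 15 members were higher and 3 lower, against 16.8% and 18.2% of all genes.

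The other TIL cells were then taken apart by cytotoxic genes, a split added after the data were seen. The 1235 cells with at least 10 UMIs over Gzma, Ccl5 and Nkg7 had 18133 CPM of nuclear members, a log2 ratio over IEL of 0.10, and the 1558 others had 20052 CPM, a ratio of 0.25. Ndufa4 differed between them, with 325 and 474 CPM, and so did Ndufa1 with 171 and 206 CPM. Hif1a was at 190 CPM in the first and 881 CPM in the second. In the IEL library, the 100 cells with a Cd163l1 UMI had 16846 CPM of nuclear members, a log2 ratio to all IEL cells of -0.0052 (-0.028 to 0.018), although their Il17a level was 747 CPM. Ndufa1 was at 149 CPM in them against 105 CPM in IEL cells as a whole. Of these 100 cells, the 44 with under 10 cytotoxic UMIs had 16118 CPM, and the TIL Cd163l1-positive cells chosen in the same way had 21864 CPM, a log2 ratio of 0.44 (0.40 to 0.48). Between these sets 27 of 83 members were at least 1.5-fold higher and 1 lower, against 17.1% of all genes higher and 24.2% lower, and 44 cells limit the precision of single genes.

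**Figure D4:**
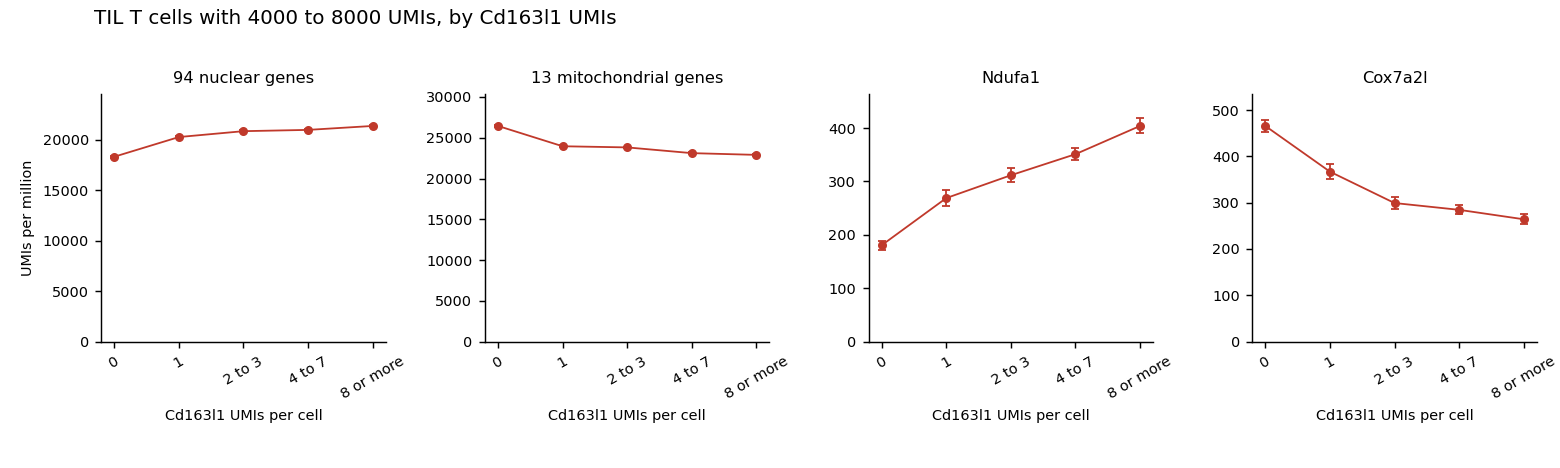
Level in CPM of all nuclear members, all mitochondrial genes, Ndufa1 and Cox7a2l in TIL T cells with 4000 to 8000 UMIs, by the number of Cd163l1 UMIs in the cell. Bars are 95% counting intervals. Ndufa1 goes from 180 to 404 CPM and Cox7a2l from 466 to 264.

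Among TIL T cells of like depth (4000 to 8000 UMIs), the members were followed over the number of Cd163l1 UMIs. Nuclear members stood at 18320 CPM in 1847 cells with none, 20270 with 1, 20852 with 2 to 3, 20979 with 4 to 7 and 21369 in 1284 cells with 8 or more. Most of the step thus lay between cells with none and cells with 1. Mitochondrial genes stood lower at each step, from 26445 to 22898 CPM over the same classes. Ndufa1 was higher in each further class, at 180, 269, 312, 351 and 404 CPM, and Cox7a2l lower in each, at 466, 367, 299, 285 and 264 CPM. Complex III had no such order, with 1910, 2152, 2117, 2029 and 1975 CPM. The classes differed in cell content as well: Ccl5 stood at 6710, 2005, 210, 160 and 119 CPM and Il17a at 1651 CPM in the first and 5925 in the last. Median depth ran from 5597 to 6290 UMIs. The part of these in the result was not tested.

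Cycling cells, with at least 3 UMIs over 10 cell cycle genes, had more nuclear transcripts in each group. The log2 ratio of cycling to other cells was 0.22 in 296 IEL cells, 0.21 in 301 Cd163l1-positive cells and 0.30 in 51 other TIL cells. Mitochondrial genes had ratios of -0.082, 0.0076 and -0.11. Median depth of cycling and other cells was 10693.5 and 6805 UMIs in IEL, 13549 and 6674 in Cd163l1-positive and 9860 and 5586 in other TIL cells. The part of depth in these ratios was not tested. Cycling cells were 3.25%, 3.23% and 1.83% of the groups, and the Cd163l1-positive over IEL ratio was 0.36 among cycling and 0.37 among other cells.

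**Figure D5:**
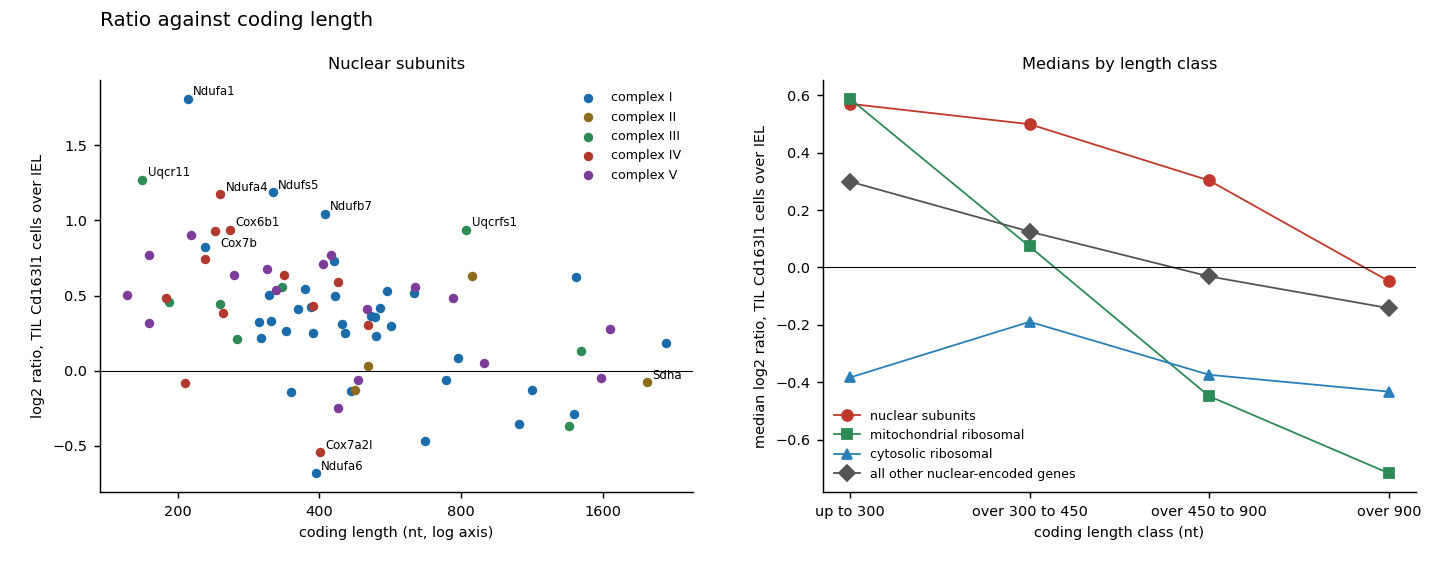
Left, log2 ratio of measured nuclear subunits in Cd163l1-positive TIL cells over IEL cells against their coding length (log axis), coloured by complex. Right, median log2 ratio by coding length class for nuclear subunits and for 3 other sets of genes (the shortest mitochondrial ribosomal class holds 2 genes). Subunits of up to 300 nt have a median of 0.57 and those over 900 nt of -0.047.

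Members with short coding sequences tended to have the higher ratios, with exceptions such as Uqcrfs1, Sdhb and Ndufv3 among the longer ones and Cox8a and Ndufa6 among the shorter ones. Coding length, taken as the longest of any transcript of the gene in the GENCODE M21 annotation, was known for 77 of the 78 measured subunits. The transcript form that was counted may be shorter. Across them the log2 ratio of Cd163l1-positive TIL over IEL cells had a Spearman correlation of -0.48 with coding length, against -0.046 across 5977 other nuclear genes. Of 20 subunits of up to 300 nt, 19 had ratios above 1 with a median log2 of 0.57, Cox8a being the exception. The medians were 0.50 for over 300 to 450 nt, 0.30 for over 450 to 900 nt and -0.047 for the 11 longer ones, such as Sdha, Ndufs1 and Uqcrc2, of which 5 were above 1. Among other nuclear genes the same classes had medians of 0.30, 0.12, -0.031 and -0.14, so the shortest of them leaned the same way. The mitochondrial ribosomal proteins had a correlation of -0.61 over 73 genes, and the cytosolic ones of -0.19 over 85. Of the 10 cytosolic ones of up to 300 nt, 0 had ratios above 1, with a median log2 of -0.38. Within the TIL library the correlation over the subunits was -0.39, against -0.23 across other genes. There it was -0.55 for the mitochondrial and 0.19 for the cytosolic ribosomal proteins. Genes are not independent replicates, and RNA quality was not measured.

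Genes that serve the same pathway were read from lists, by the same 1.5-fold rule in Cd163l1-positive TIL over IEL cells, for which the shares of all genes were 20.8% higher and 26.9% lower. A gene that reached 20 CPM in 1 of these groups only was admitted through the group where it is high, so such genes are counted beside the lists that hold most of them. Of 11 measured complex I assembly factors, 1 was higher and 5 lower, and 4 reached the floor in 1 group only. These were Lyrm2 (7.26 and 26.8 CPM), Tmem126b (28.3 and 7.36 CPM), Ndufaf1 and Ndufaf2. Of the 7 others 3 were lower, among them Ecsit (78.3 and 21.5 CPM). Among 26 assembly factors of the other complexes, 5 were higher and 6 lower, shares close to those of all genes, and 3 of the 6 reached the floor in IEL cells only. Sdhaf1, which helps Sdhb receive its iron-sulfur centres, stood at 41.2, 142 and 136 CPM in IEL, Cd163l1-positive and other TIL cells. The copper chaperone Cox17 stood at 169, 308 and 208 CPM and Surf1, of complex IV assembly, at 70.7, 26.3 and 29.8 CPM. Of 13 electron carrier genes and further subunits, 2 were higher, Cycs (cytochrome c, 157, 251 and 211 CPM) and the member Atp5mpl. Of these genes 5 were lower, among them the ubiquinone synthesis genes Coq8b, Coq5, Coq9 and Coq2, and 4 of the 13 reached the floor in 1 group only. Of the 9 at the floor in both groups, 2 were higher and 2 lower.

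In the citric acid cycle list the differences were few, with 1 gene of 18 higher and 1 lower and a median log2 of -0.095. The pyruvate carrier Mpc1 stood at 75.4, 174 and 164 CPM and Idh2, at the floor in IEL cells only, at 25.5, 5.28 and 9.73 CPM. Of 12 genes for mitochondrial DNA upkeep and expression, 1 was higher (Polg, the mitochondrial DNA polymerase, 7.34 and 35.6 CPM) and 6 lower, but 8 of the 12 reached the floor in 1 group only. Polg2, its accessory subunit, stood at 50.3 and 15.6 CPM and is among these 8. Of the 4 at the floor in both groups, 0 were higher and 1 lower. Of 73 mitochondrial ribosomal protein genes, 4 were higher (Mrps21, Mrpl33, Mrps33 and Mrps28) and 22 lower, led by Mrpl9 at 160 and 51.4 CPM, a lower share near that of all genes. Of the 66 at the floor in both groups, 4 were higher and 16 lower. The transporters Slc25a4 and Slc25a3, which carry ADP and ATP and phosphate, were the 2 of 11 carrier and antioxidant genes that were higher, Slc25a4 at 108, 291 and 183 CPM.

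Among the regulators of mitochondrial biogenesis, Hif1a, the oxygen-sensitive factor known to favour glycolysis, stood at 59.2, 1077 and 561 CPM. Esrra, at the 20 CPM floor in IEL cells only, stood at 21.7, 11.5 and 11.5 CPM. Nrf1, Gabpa and Yy1 had log2 ratios of -0.40, 0.14 and -0.099, and Ppargc1a was at most 0.174 CPM. Of all genes at the 20 CPM floor, 9.07% were at least 1.5-fold higher in Cd163l1-positive than in other TIL cells and 6.58% lower. In the mitochondrial ribosomal, citric acid cycle, DNA expression and complex II to V assembly lists no gene at this floor was past 1.5-fold. Of 9 measured complex I assembly factors, 0 were higher and 1 lower, Ecsit (log2 -0.83). Slc25a4 and Ucp2 were higher in Cd163l1-positive than in other TIL cells, by log2 0.67 and 0.70, as was Hif1a by 0.94.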

How the data were processed

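Droplet 3′ libraries of 1 normal colon and 1 colon tumor sample were analysed. The authors deposited whole-number UMI counts per gene and barcode, not normalized, per the file headers. Alignment and counting used Cell Ranger 6.1.1 with mm10, per the submitters' processing notes. Barcodes were kept with at least 500 genes, 1000 UMIs and at most 10% mitochondrial UMIs, and doublets were not called. Counts were summed per group and scaled to CPM with Python 3.11.15, NumPy 2.4.6, SciPy 1.17.1 and pandas 2.3.3. Intervals of a ratio are exact binomial intervals given both summed counts, and the code was tested on simulated data. No p-value was computed. The rule for named genes took all mitochondrial and Sdh genes, members past 1.5-fold at 20 CPM, the most abundant member of each complex, tissue isoforms, c ring genes and pathway genes past 1.5-fold. Other genes given as examples, among them Uqcrc2, Ndufs7, Ndufs8, Ndufv1, Cox7a2 and Cox7c, were chosen after their values were seen. The members and lists were chosen with earlier results of these data known. Alternatives covered scaling, cell filters, depth, the floor and the fold. A complex I member is counted in sums but not reported here by itself, and is not drawn.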

Additional observations from a re-analysis of the deposited data

How the results depend on the processing

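Each group was 1 library, so nothing here measures variation between animals, and intervals cover counting error only. No paired analysis was possible because each group has 1 library and the labels give no replicate numbers. The nuclear log2 ratio stayed above 0 in 12 of 12 alternatives for Cd163l1-positive TIL over IEL cells (0.29 to 0.46), in 12 of 12 for other TIL over IEL cells (0.14 to 0.30) and in 13 of 13 for Cd163l1-positive over other TIL cells (0.049 to 0.22). These comparisons are called the first, second and last below, values are log2 ratios of summed UMIs, and counts are of nuclear members past 1.5-fold. The cause of each change was not tested.

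Scaled without mitochondrial and ribosomal UMIs, the nuclear ratios were 0.29, 0.24 and 0.049 and the mitochondrial ones -0.028, 0.29 and -0.32. In the first comparison 17 members were higher and 6 lower, against 18.5% and 30.1% of all genes. In the last 1 was higher and 1 lower, against 6.03% and 10%, and complexes II, III and V were at -0.038, -0.022 and -0.0072. mt-Co3 was at -0.050 in the first. With the median ratio of all genes set to 1, the nuclear ratios were 0.46, 0.30 and 0.13 and the mitochondrial ones 0.14, 0.35 and -0.24. In the second comparison 15 members were higher, against 16.8% of all genes. As a mean over cells, the nuclear ratios were 0.35, 0.14 and 0.21 and the mitochondrial ones 0.049 in the first and -0.18 in the last. Thinned to 2000 UMIs, the nuclear ratios were 0.35, 0.15 and 0.20. Then 6 members were lower in the first comparison, 4 higher in the second and 1 lower in the last. The shares of all genes were 26.7%, 13.7% and 8.03%. In cells with 4000 to 8000 UMIs, the nuclear ratios of the first 2 comparisons were 0.34 and 0.15 and the mitochondrial ones 0.042 and 0.22. Here 6 members were lower in the first, 5 higher in the second and 1 lower in the last. The shares of all genes were 27.3%, 13% and 7.88%.

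Requiring at least 2 Cd163l1 UMIs gave 0.38 for nuclear members in the first comparison and 0.044 and -0.19 for mitochondrial genes in the first and last. Without the T cell rule the nuclear ratios were 0.37, 0.16 and 0.20 and the mitochondrial ones 0.049 and 0.22 in the first 2. Among cells with a γδ receptor UMI and no Trac, the nuclear ratios were 0.42, 0.20 and 0.22 and the mitochondrial ones -0.041, 0.16 and -0.20. In the first comparison 5 members were lower, against 27.3% of all genes. A stricter cell filter gave mitochondrial ratios of 0.023, 0.18 and -0.16, a looser one 0.062, 0.24 and -0.18, and leaving out cycling cells 0.049 in the first. At 2-fold, 5 members were higher and 1 lower in the first comparison, against 11.7% and 14.6% of all genes. Higher at 2-fold were 0 in the second and 0 in the last, against 6.94% and 2.92%. With a floor of 5 CPM, 5 were lower in the first and 5 in the second, against 31.9% and 28.3% of all genes. With a floor of 50 CPM these counts were 1 and 0, against 23.1% and 19.6%.

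A further 2 alternatives were chosen after seeing the data. Keeping only cells with no erythroid, myeloid or epithelial UMI left 4790 IEL, 3446 Cd163l1-positive and 966 other TIL cells. The nuclear ratios of the second and last comparisons were then 0.17 and 0.20 and the mitochondrial ones 0.039, 0.22 and -0.18. Of the members 5 were lower in the first and 5 in the second, against 27.1% and 25.8% of all genes. With only those other TIL cells that had under 10 UMIs over Gzma, Ccl5 and Nkg7, the nuclear ratios were 0.25 in the second and 0.13 in the last and the mitochondrial ones 0.20 and -0.15. In the second 14 members were higher and 5 lower, against 17.9% and 26.6% of all genes. In the last 1 was higher, against 5.07%, and complex III stood at -0.014.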
